A study of Homo sapiens with 3 samples.

Results

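Desmosomal genes are the 10 genes DSP, JUP, DSG1, DSG2, DSG3, DSC2, DSC3, PKP1, PKP2 and PKP3, taken by name from the 19220 genes of the count table, and their transcripts were compared between a drug-sensitive oral cancer line and 2 resistant lines made from it. CAL27 is a human oral squamous cell carcinoma line, labelled WT and grown without drug. CAL27/5FU and CAL27/OXA were obtained from CAL27 by raising the drug step by step and were then kept in 10 μM 5-fluorouracil (5FU), a pyrimidine analogue, or 10 μM oxaliplatin (OXA), a platinum compound. All were grown in high-glucose DMEM with fetal bovine serum. Whether a resistant line came from 1 clone is not stated in the sources used here, and the resistant state and the presence of the drug cannot be told apart. RNA-seq of 1 library per line was used. The tables hold 3 further columns of per-sample values whose names match no sample label; whether they are second libraries of these lines is not known, and they were not used. The spread between replicates was therefore not measured for any difference given here, and none was tested. In bulk RNA, fewer cells of a type and less RNA per cell cannot be told apart either.

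Desmosomes are the spot-like junctions that tie the keratin filaments of neighbouring epithelial cells together. The desmogleins (DSG genes) and desmocollins (DSC genes) are cadherins that span the membrane and bind across the gap between cells. Their tails hold plakoglobin (JUP) and the plakophilins (PKP genes), and desmoplakin (DSP) links these to the filaments. In stratified epithelia such as the oral mucosa, several isoforms of each family are made, and their mix varies with the layer of the epithelium.

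The libraries held 37297713 to 43455488 counts. Where 3 values stand in a row, they are those of CAL27, CAL27/5FU and CAL27/OXA in that order. Squamous markers were present in each line: the summed level of KRT5, KRT14, KRT6A, KRT17, TP63, EPCAM, CDH1 and SFN was 14543, 3430 and 4850 CPM (counts scaled to a common library total). Of these 8 markers, 6 were more than 2-fold lower in CAL27/5FU and 4 in CAL27/OXA. Over the 13676 genes compared below, 6.72% were that much lower in CAL27/5FU and 9.28% in CAL27/OXA. KRT5, KRT14, KRT6A and KRT17 were lower in both lines, and TP63 and SFN only in CAL27/5FU. EPCAM and CDH1 stayed within 2-fold in both. The part of these squamous markers in the differences below was not tested. Of the markers of other cells, COL3A1, THY1, MYH6 and MYH7 were at 0 in every library and the leukocyte gene PTPRC had 2, 0 and 0 counts. Others were counted, among them the fibroblast markers COL1A1 (1387, 1068 and 1050 counts) and LUM (120, 414 and 877) and the leukocyte marker CD68 (3143, 1827 and 5055), and their part was not tested. The summed level of 7 fibroblast markers was 41.9, 47.1 and 50.04 CPM. The 6 leukocyte markers summed to 97.3, 80.0 and 122 CPM, and the 4 endothelial markers to 2.57, 9.35 and 4.70 CPM. Of the endothelial markers, CDH5 had 43, 338 and 163 counts and KDR had 0, 3 and 6. PECAM1 had 13, 6 and 11 counts and VWF had 44, 19 and 29. The 3 melanocyte markers summed to 2.41, 3.65 and 1.62 CPM, and the 4 cardiac markers to 0.257, 0.281 and 0.630 CPM.

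The promoters of 5 genes are shown: PKP1, JUP, DSP and DSG3, the 4 that fell past 2-fold in both resistant lines, and DSG2, which stayed near its CAL27 level. Of the 4 that fell, JUP and DSP carry the E-box letters CACCTG, which ZEB and SNAI factors are known to recognise, and PKP1 and DSG3 do not, while DSG2 does. Each line gives the 250 bases before the transcription start in RefSeq (GRCh38.p14), 5′ to 3′ along the gene, with capitals marking CACCTG or its reverse complement CAGGTG.
PKP1, chr1:201283256-201283505, plus strand: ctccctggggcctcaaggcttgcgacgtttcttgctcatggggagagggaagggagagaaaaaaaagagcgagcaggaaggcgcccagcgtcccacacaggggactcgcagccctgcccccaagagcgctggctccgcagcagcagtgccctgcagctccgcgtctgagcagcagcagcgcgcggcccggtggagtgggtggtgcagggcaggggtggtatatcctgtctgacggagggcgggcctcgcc
JUP, inner of 2 listed starts, chr17:41785977-41786226, minus strand: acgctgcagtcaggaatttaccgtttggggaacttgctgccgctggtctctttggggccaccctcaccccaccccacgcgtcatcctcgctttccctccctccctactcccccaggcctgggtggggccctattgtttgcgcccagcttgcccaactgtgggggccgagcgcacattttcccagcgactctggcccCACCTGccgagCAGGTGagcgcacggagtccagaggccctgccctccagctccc
DSP, chr6:7541421-7541670, plus strand: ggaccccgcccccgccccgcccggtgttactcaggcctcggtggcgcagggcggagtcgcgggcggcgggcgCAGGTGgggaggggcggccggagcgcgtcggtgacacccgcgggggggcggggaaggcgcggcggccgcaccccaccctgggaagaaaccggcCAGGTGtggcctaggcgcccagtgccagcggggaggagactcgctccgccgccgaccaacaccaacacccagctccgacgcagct
DSG3, chr18:31447491-31447740, plus strand: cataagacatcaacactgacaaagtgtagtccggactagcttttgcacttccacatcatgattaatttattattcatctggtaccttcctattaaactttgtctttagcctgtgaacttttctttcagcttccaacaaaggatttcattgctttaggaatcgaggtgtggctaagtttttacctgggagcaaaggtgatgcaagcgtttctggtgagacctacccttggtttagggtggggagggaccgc
DSG2, chr18:31497927-31498176, plus strand: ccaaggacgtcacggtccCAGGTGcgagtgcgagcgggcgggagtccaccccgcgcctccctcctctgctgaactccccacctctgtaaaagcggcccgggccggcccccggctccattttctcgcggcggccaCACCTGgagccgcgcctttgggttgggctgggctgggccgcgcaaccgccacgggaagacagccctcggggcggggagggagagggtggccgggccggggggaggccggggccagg

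RefSeq windows of 300 bases, 250 before to 50 after the start, were available for 8 of the 10 genes. PKP2 and PKP3 had none. Searched on both strands, CACCTG was present in 5 of the 8 genes (DSP, JUP, DSG1, DSG2 and DSC2). These 8 genes had 10 windows, since JUP and DSC2 each had a second start. Counted per window and not per gene, CACCTG was in 20.6% of all 35116 promoter windows. In DSP it began at -178 and -85 from the start, and in DSG2 at -232 and -116. JUP held it only at the inner start, at -54 and -43. It lay at -245 in DSG1 and, only at the outer start, at -156 in DSC2. The letters of the AP-1 site (TGANTCA, in 7.71% of all windows), the grainyhead site (AACNGGTT, 1.73%), the TCF/LEF site (CTTTGAT, 2.62%) and TATAAA (11.5%) were not found in the windows of the 8 genes. These matches are a description of sequence, not of binding. The windows differed widely in GC content, from 44% GC with 6 CG pairs in DSG3 to 77% GC with 37 CG pairs in DSP, against medians of 58.7% and 14 over all windows. The fewest CG pairs among the 8 genes were 3, in DSG1 at 45.7% GC. The PKP1 window had 67.3% GC and 19 CG pairs.

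In the drug-sensitive line JUP, PKP3, DSP and PKP1, all genes of the plaque, had the highest levels, while PKP2, also of the plaque, ranked below the cadherins DSG2, DSG3 and DSC3. Levels between genes are given as FPKM, fragments scaled to gene length and library total. In CAL27 the order of levels was JUP at 341 FPKM, PKP3 at 115, DSP at 90.1, PKP1 at 46.8, DSG2 at 42.8, DSG3 at 18.3, DSC3 at 15.9, PKP2 at 9.35 and DSC2 at 9.27, with DSG1 at 0. Only PKP2 and DSC2 had overlapping 95% counting intervals in that order. In CAL27/5FU the order was JUP (117 FPKM), PKP3 (82.7), DSG2 (46.1), DSP (45.1), PKP2 (15.7), DSC3 (9.68), DSG3 (8.51), DSC2 (6.51), PKP1 (2.51) and DSG1 (0.0148), with DSG2 and DSP not separable by counting error. In CAL27/OXA it was JUP (128 FPKM), PKP3 (82.9), DSP (43.6), DSG2 (40.5), PKP2 (14.8), DSC3 (12.3), DSG3 (9.84), DSC2 (6.10), PKP1 (1.13) and DSG1 (0). JUP and PKP3 held the first places in every line, while PKP1 went from the 4th place in CAL27 to the 9th in each resistant line.

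**Figure D1:**
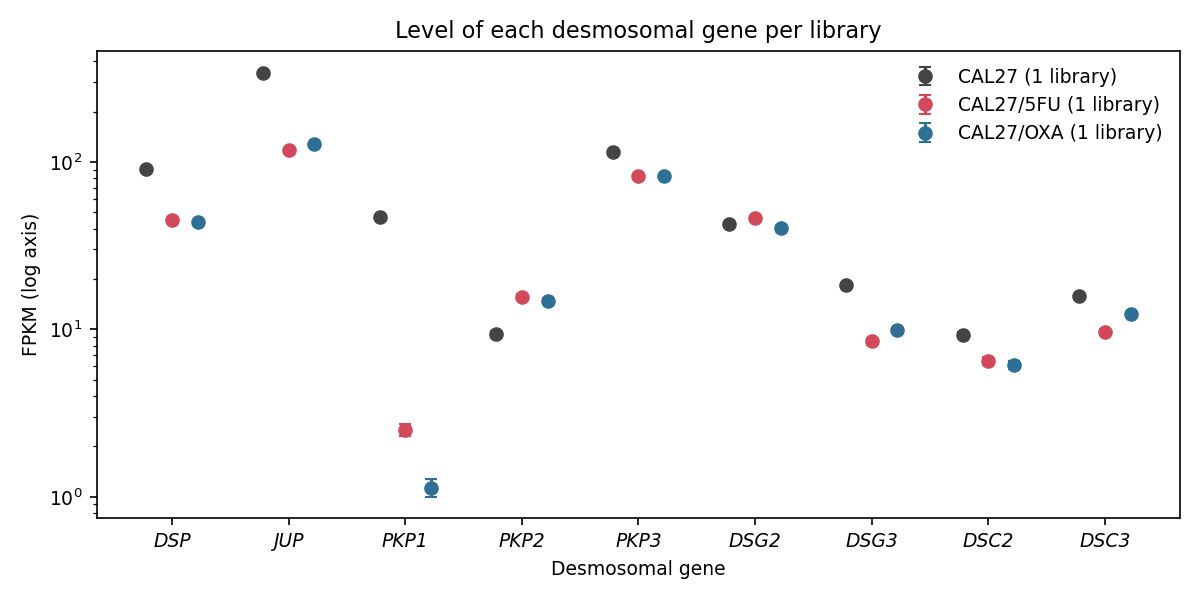
Level of each of the 9 desmosomal genes other than DSG1 in FPKM on a log axis, 1 point per library of CAL27, CAL27/5FU and CAL27/OXA. DSG1, at or near 0, is not drawn. PKP1 drops from 46.8 FPKM in CAL27 to 2.51 and 1.13 FPKM, and PKP2 is the only gene with counts of at least 10 that is higher in both resistant lines than in CAL27.

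Against CAL27, 4 of the 9 compared desmosomal genes fell in CAL27/5FU. Differences are log2 ratios of counts scaled with TMM, a gene counts as higher or lower when it is past 2-fold, and the 13676 genes averaging 10 counts or more were compared. DSG1 had 0, 4 and 0 counts and was below that minimum, which left 9 desmosomal genes. Those that fell were PKP1, JUP, DSG3 and DSP, and 0 rose, against a background of 6.72% of all compared genes lower and 8.46% higher. The remaining 5 were within 2-fold. The median of the 9 log2 ratios was -0.89, with a range of -4.39 to 0.57, while the median over all compared genes was -0.0035. With CPM set by total counts, DSP in CAL27/5FU was at -0.998 and no longer past 2-fold.

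CAL27/OXA gave counts of the same size. PKP1, JUP, DSP and DSG3 were past 2-fold lower and 0 genes were higher, against 9.28% of all compared genes lower and 6.54% higher. The median over the 9 genes was -0.73, with a range of -5.49 to 0.53, and the median over all genes was 0.0055. DSG3 in CAL27/OXA lay close to the threshold: its log2 ratio was -1.03, its interval reached -0.95, and with total counts it was -0.89. Both comparisons use the single CAL27 library, so an error in that library would appear in both.

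**Figure D2:**
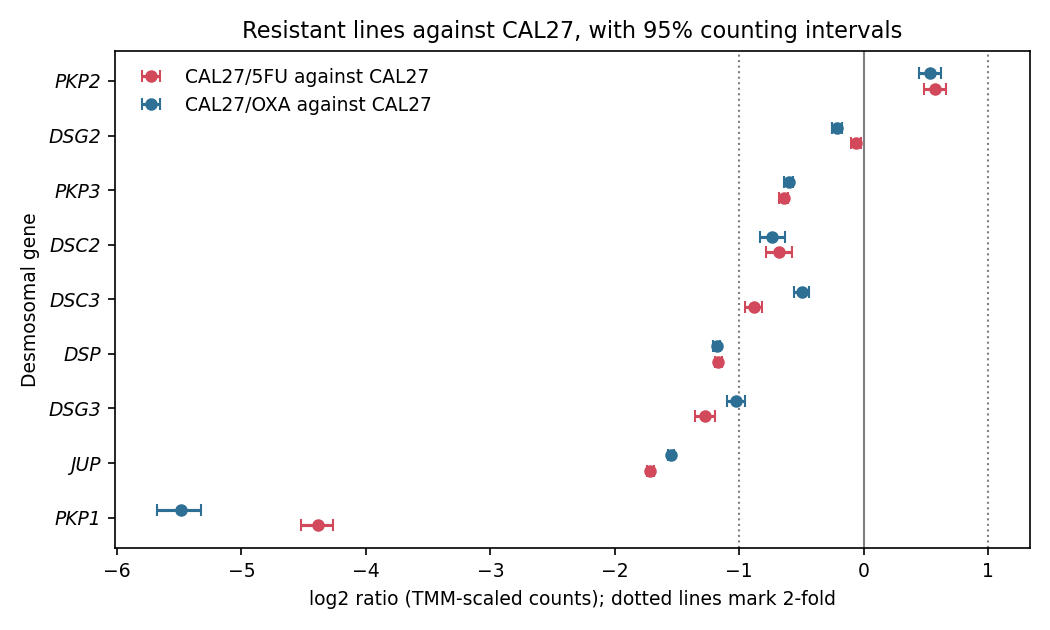
Log2 ratio of TMM-scaled counts against CAL27 for the 9 compared desmosomal genes, with 95% intervals that cover counting error only. The dotted lines mark 2-fold. PKP1 lies at -4.39 and -5.49, and PKP2 alone lies above 0, at 0.57 in CAL27/5FU and 0.53 in CAL27/OXA.

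Among the plaque genes, PKP1 changed most. PKP1 encodes plakophilin 1, the plakophilin of the upper layers of stratified epithelia, which strengthens desmosomes. Its counts were 10588, 507 and 267. The log2 ratio was -4.39 (95% counting interval -4.52 to -4.26) in CAL27/5FU, 20.9-fold lower, and -5.49 (-5.68 to -5.32) in CAL27/OXA, 44.9-fold lower. Ranked from the largest fall, it was number 59 of 13676 genes in CAL27/5FU and number 31 in CAL27/OXA. It was also the only desmosomal gene past 2-fold between the resistant lines, lower in CAL27/OXA by 2.15-fold (log2 ratio -1.10, -1.33 to -0.89), with an interval that reached inside 2-fold.

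JUP, which encodes plakoglobin, the armadillo protein shared by desmosomes and adherens junctions, was the most abundant member and fell in each resistant line. Its counts were 47950, 14677 and 18727. The log2 ratio was -1.71 (-1.74 to -1.69) in CAL27/5FU and -1.55 (-1.57 to -1.52) in CAL27/OXA, 3.28-fold and 2.92-fold lower. JUP was slightly higher in CAL27/OXA than in CAL27/5FU (0.17, 0.14 to 0.20). CTNNB1, the close relative beta-catenin that serves adherens junctions and Wnt signalling and was named after its values were seen, stood at 10426, 8187 and 11219 counts, with ratios of -0.36 and -0.08, the second of which turned to 0.049 with total counts. The ratio of JUP to CTNNB1 in FPKM was 4.78, 1.86 and 1.74.

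DSP encodes desmoplakin, which joins the plaque to the filaments. It had 32970, 14730 and 16589 counts in CAL27, CAL27/5FU and CAL27/OXA. Its log2 ratios were -1.17 (-1.20 to -1.14) and -1.18 (-1.21 to -1.15), and the 2 resistant lines differed by -0.011 (-0.043 to 0.021), an interval that includes 0. The JUP to DSP ratio in FPKM moved less than either gene, from 3.79 in CAL27 to 2.60 and 2.94.

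The other plakophilins did not follow PKP1. PKP3, the most widely expressed epithelial plakophilin, had 13557, 8716 and 10179 counts, with log2 ratios of -0.64 (-0.68 to -0.61) and -0.60 (-0.64 to -0.57), both within 2-fold. PKP2, known from simple epithelia and the heart as well as stratified epithelia, had 1708, 2554 and 2812 counts. It was higher in both resistant lines by less than 2-fold, with log2 ratios of 0.57 (0.48 to 0.66) and 0.53 (0.44 to 0.62), or 1.49-fold and 1.44-fold.

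The make-up of the plakophilin family differed accordingly. Of the family's summed FPKM, PKP1 gave 27.4%, 2.49% and 1.15%. PKP2 gave 5.47%, 15.5% and 15.0%, and PKP3 gave 67.2%, 82.0% and 83.9%. In CAL27 PKP1 was 5.01 times the level of PKP2, whereas in CAL27/5FU it was 0.160 and in CAL27/OXA 0.0767 of it. The summed FPKM of the 3 plakophilins was 170.9, 100.9 and 98.8.

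**Figure D3:**
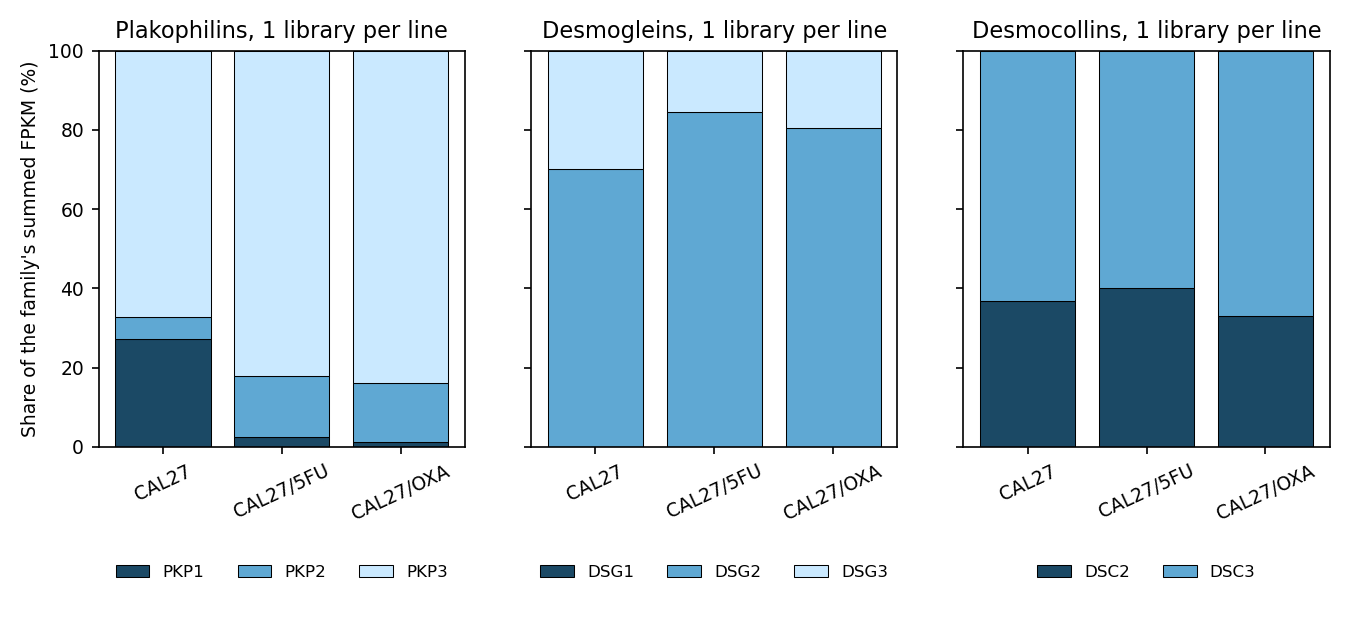
Share of each gene in the summed FPKM of its family, in percent, for the plakophilins, desmogleins and desmocollins in the 3 libraries. PKP1 shrinks from 27.4% in CAL27 to 2.49% and 1.15%, and DSG2 goes from 70.1% of the desmogleins to 84.4% and 80.5%.

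The desmogleins differed from each other. DSG3, the desmoglein of the basal layers and a target of the antibodies in pemphigus vulgaris, had 4244, 1762 and 2375 counts in CAL27, CAL27/5FU and CAL27/OXA. It fell in both resistant lines, with log2 ratios of -1.27 (-1.36 to -1.19) and -1.03 (-1.10 to -0.95). DSG2, the most widely expressed desmoglein, stayed near its CAL27 level, at 10499, 10100 and 10338 counts. Its log2 ratios were -0.06 (-0.10 to -0.02) and -0.21 (-0.25 to -0.17), and the first turned to 0.11 with total counts, the scale on which FPKM was also made. DSG1, the desmoglein of the upper epidermis, had at most 4 counts in any library, near the floor of 3 counts, so no fold is given.

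Of the desmoglein FPKM, DSG2 made up 70.1%, 84.4% and 80.5%, and DSG3 made up 29.9%, 15.6% and 19.5%. Summed over the family, desmoglein FPKM was 61.1, 54.6 and 50.4. Relative to desmoplakin, DSG2 stood at 0.475, 1.02 and 0.929 of the DSP level.

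Both desmocollins were lower by less than 2-fold. DSC2, the widely expressed desmocollin, had 2027, 1270 and 1388 counts and log2 ratios of -0.68 (-0.78 to -0.58) and -0.73 (-0.84 to -0.64). DSC3, the desmocollin of the basal layers, had 5099, 2773 and 4116 counts and log2 ratios of -0.89 (-0.95 to -0.82) and -0.50 (-0.56 to -0.44). DSC3 showed the widest gap between the resistant lines after PKP1, higher in CAL27/OXA by 0.39 (0.32 to 0.46). Of the summed FPKM of the pair, DSC3 gave 63.2%, 59.8% and 66.9%.

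Summed over all 10 genes, desmosomal FPKM was 688.8, 333.9 and 339.5. JUP alone accounted for 49.6%, 35.1% and 37.8% of it. The cadherins made up 12.5%, 21.2% and 20.3% of it, with a summed FPKM of 86.2, 70.8 and 68.8. DSP kept close to the same share, at 13.1%, 13.5% and 12.8%.

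Between the resistant lines, PKP1 alone passed 2-fold; this comparison shares its libraries with the other 2. CAL27/OXA against CAL27/5FU gave 1 gene past 2-fold lower (PKP1) and 0 higher, with 8 within 2-fold, against 8.38% of all compared genes lower and 4.18% higher. The median of the 9 ratios was -0.011 and that of all genes 0.0079. Counting intervals lay above 0 for JUP, DSG3 (0.25, 0.16 to 0.34) and DSC3, and below 0 for PKP1 and DSG2 (-0.15, -0.19 to -0.11). For DSP, PKP2, PKP3 and DSC2 the intervals included 0, those of PKP2 and DSC2 being -0.12 to 0.03 and -0.17 to 0.06.

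The nearest relatives of these genes were measured as well. For the counts in this and the following gene lists, the background in CAL27/5FU was 6.72% of all compared genes lower and 8.46% higher. In CAL27/OXA it was 9.28% lower and 6.54% higher. PERP, a tetraspan membrane protein of desmosomes, had 36442, 12836 and 20959 counts, fell in CAL27/5FU (-1.51, -1.54 to -1.48) and stood just within 2-fold in CAL27/OXA (-0.99, -1.01 to -0.96). PKP4, an armadillo protein found at several junctions, had 3784, 4392 and 4697 counts and ratios of 0.21 and 0.12. DSC1 had 5, 3 and 2 counts and DSG4 had 0 in each library, so neither was compared. Of the 6 compared genes in the list of other desmosomal and cornified-envelope plakin genes, 0 rose and 1 fell in CAL27/5FU, and 0 rose and 2 fell in CAL27/OXA. The pair that fell in CAL27/OXA was PPL, the envelope protein periplakin (12495, 7159 and 4859 counts, ratios -0.81 and -1.55), and CDSN, the corneodesmosome protein corneodesmosin (167, 90 and 79 counts, -0.88 and -1.25).

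Keratins are the filaments that desmoplakin holds, and most fell. Of 16 compared filament genes, 2 rose and 11 fell in CAL27/5FU (median -2.56), and 1 rose and 11 fell in CAL27/OXA (median -2.78); the desmosomal medians were -0.89 and -0.73. The basal keratin KRT14 had 58222, 948 and 8423 counts (-5.94 and -2.98). KRT15, another basal keratin, had 92433, 3388 and 1937 counts (-4.78 and -5.76). The mucosal keratin KRT13 had 498, 7 and 13 counts (-5.82 and -5.23). VIM, the mesenchymal filament vimentin, was the one gene of the list that rose in both lines, with 27, 863 and 1395 counts (4.90 and 5.41). The simple-epithelial keratin KRT7 rose in CAL27/5FU (1.70) and stayed within 2-fold in CAL27/OXA (-0.97), at 493, 1609 and 285 counts. KRT8, KRT10 and KRT18, named after their values were seen, stayed within 2-fold in both lines. KRT8 had 31681, 49766 and 28662 counts (0.64 and -0.33), and KRT18 had 21815, 31868 and 29852 (0.54 and 0.26). KRT14 shares long stretches of sequence with other keratins and its counts are uncertain to that degree.

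Adherens junction genes, which build the classical cadherin junction beside the desmosome, divided. Among 12 compared, 2 rose and 2 fell in each resistant line, with medians of -0.15 and -0.05, both of which turned positive with total counts (0.019 and 0.084). CDH2, which encodes N-cadherin, rose from 185 to 1351 and 957 counts (2.85 and 2.17), and the nectin NECTIN3 rose from 257 to 733 and 1248 (2.83-fold and 4.23-fold). NECTIN1 and NECTIN4, nectins of epithelia, fell, with 12802, 3252 and 3157 counts (-1.98 and -2.21) and 1384, 351 and 185 counts (-1.98 and -3.08). E-cadherin, encoded by CDH1 and named after its values were seen, stayed close, with 14800, 13459 and 15076 counts (-0.14 and -0.16, with total counts 0.027 and -0.030).

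Hemidesmosomes, which anchor the basal cell to its matrix, and connexins, which form gap junctions, were compared alongside. Of 9 hemidesmosomal genes, 0 rose and 1 fell in CAL27/5FU (COL17A1, the transmembrane collagen, 66476, 25563 and 69034 counts, -1.39 and -0.14), and in CAL27/OXA 0 passed 2-fold. Their medians were -0.23 and -0.013, the second of which turned to 0.12 with total counts. All 6 connexins were compared, of which 0 rose and 3 fell in each line, with medians of -1.40 and -1.08. GJB6 had 1113, 15 and 10 counts (-6.05 and -6.71), and GJB2 had 15482, 4005 and 3309 (-1.96 and -2.41).

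**Figure D4:**
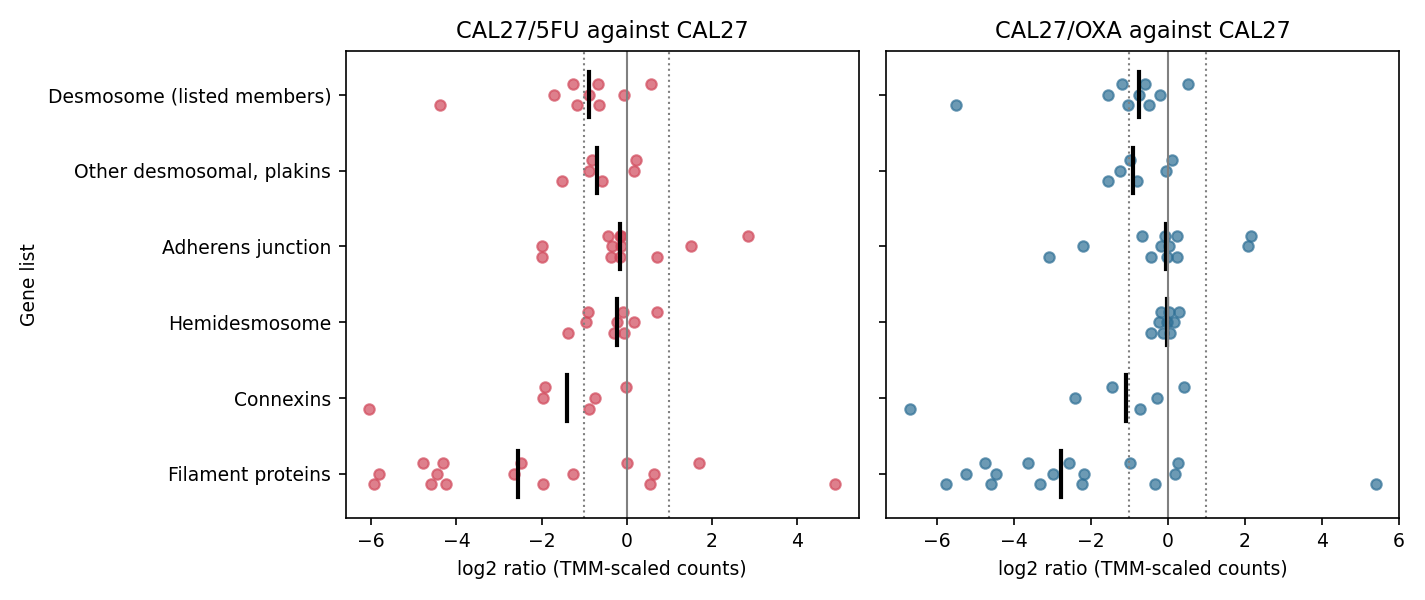
Log2 ratio against CAL27 of each compared gene in the desmosomal set and in the other desmosomal, adherens junction, hemidesmosome, connexin and filament lists, 1 point per gene, with the list median as a black bar and dotted lines at 2-fold. Filament genes have medians of -2.56 in CAL27/5FU and -2.78 in CAL27/OXA, while the desmosomal medians are -0.89 and -0.73.

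Regulators of epithelial genes are a mixed list of factors that promote the stratified program and factors that repress it. Of 18, 2 rose and 9 fell in CAL27/5FU (median -0.94), and 2 rose and 7 fell in CAL27/OXA (median -0.54). The 2 that rose in each line were the repressors ZEB1, at 75, 275 and 283 counts (1.84 and 1.70), and ZEB2, at 62, 206 and 176 counts (1.70 and 1.29). The repressors SNAI1 (46, 80 and 42 counts, 0.77 and -0.31) and SNAI2 (1844, 1174 and 2768 counts, -0.66 and 0.40), named after their values were seen, stayed within 2-fold in both lines. Among the genes that fell were the differentiation factor ZNF750 (759, 77 and 82 counts, -3.28 and -3.37) and the grainyhead factor GRHL1 (3526, 872 and 382 counts, -2.02 and -3.39). OVOL1 (404, 147 and 30 counts, -1.45 and -3.85) and ELF3 (7125, 2463 and 742 counts, -1.54 and -3.45), both factors of epithelial differentiation, fell as well. TP63, the master factor of stratified epithelia, had 23645, 9759 and 29498 counts. It fell in CAL27/5FU (-1.28) and stayed within 2-fold in CAL27/OXA (0.13), a difference that was not tested.

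Of 14 kinases, transferases and proteases that act on desmosomal proteins, 0 rose and 3 fell in each line, with medians of -0.26 and -0.27. KLK5, a kallikrein that degrades desmosomal proteins of the cornified layer, had 1175, 20 and 319 counts (-5.75 and -2.06). KLK7, a second such protease, had 83, 0 and 5 counts, at least 27.8-fold lower in CAL27/5FU against a floor of 3 counts in that library, and -3.75 in CAL27/OXA.

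Positions in the genome were read from GENCODE 29 on GRCh38. The plaque genes lie apart, DSP at chr6:7541575-7586717 (plus strand), JUP at chr17:41754604-41786931 (minus), PKP1 at chr1:201283452-201332993 (plus), PKP2 at chr12:32790745-32896840 (minus) and PKP3 at chr11:392614-404908 (plus). The desmosomal cadherins lie together on chromosome 18 in the order DSC3, DSC2, DSC1, DSG1, DSG4, DSG3 and DSG2, from 30990008 to 31549008. Within that stretch the genes did not move as a block. DSC1, DSG1 and DSG4, in its middle, had 5 counts or fewer in every library, DSG3 fell, and DSG2, its neighbour, had log2 ratios of -0.06 and -0.21. The next compared gene beyond DSG2, B4GALT6, named after its values were seen, was higher, at 216, 515 and 649 counts (1.24 and 1.39). The antisense genes DSG1-AS1 and DSG2-AS1 overlap exons of DSG1 and DSG2, and since the strand setting of the counting is not given in the sources used here, reads of each pair cannot be told apart.

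**Figure D5:**
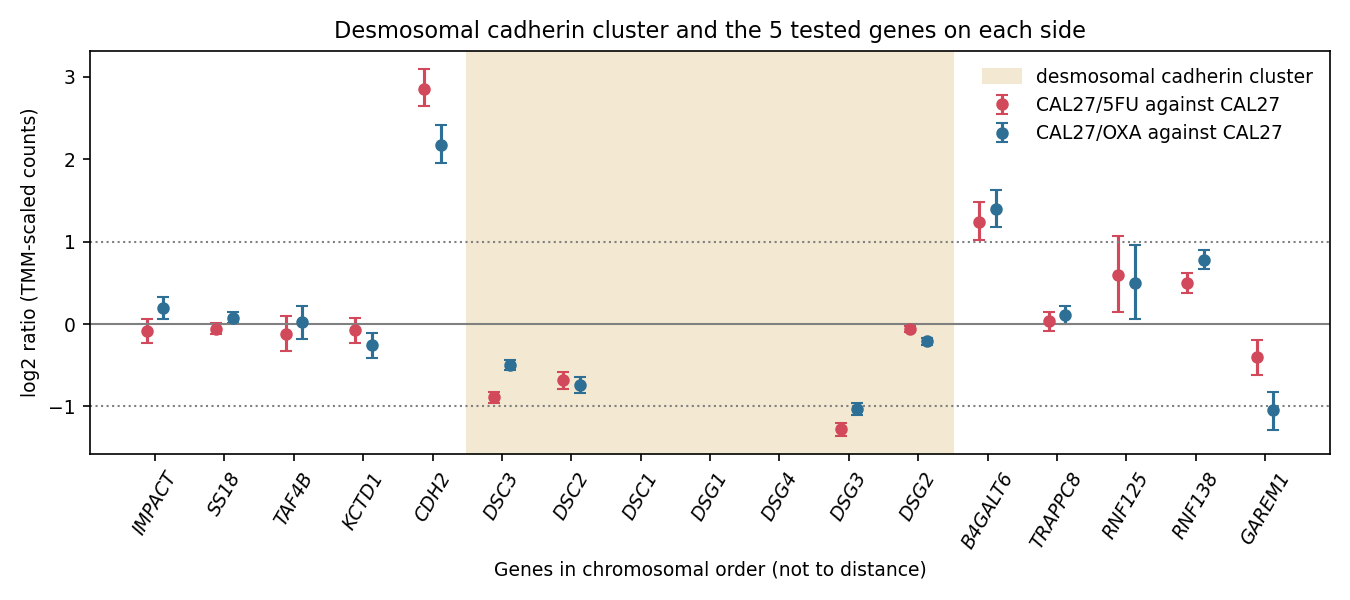
Log2 ratio against CAL27 of the genes of the desmosomal cadherin stretch on chromosome 18 and of the 5 nearest compared genes on each side, in chromosomal order and not to distance, with 95% counting intervals and the stretch shaded. DSC1, DSG1 and DSG4 have too few counts for a point, CDH2, the nearest compared gene before the stretch, has ratios of 2.85 and 2.17, DSG3 lies at -1.27 and -1.03, and DSG2 at -0.06 and -0.21.

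Genes beside PKP1 had a median close to 0. Taking the 5 nearest compared genes on each side, the median log2 ratio in CAL27/5FU and CAL27/OXA was -0.20 and -0.22 around PKP1, against -4.39 and -5.49 for PKP1 itself. Single neighbours of PKP1 ran from -0.68 to 2.05 in CAL27/5FU and from -1.54 to 2.02 in CAL27/OXA. The median was 0.046 and 0.051 around DSP, 0.19 and 0.23 around PKP2, and 0.065 and -0.15 around PKP3. Around JUP it was -0.096 and -0.0014, but 4 of the 10 neighbours were more than 2-fold lower in each line, and KRT14, KRT16 and KRT17 are among the 10. Around DSG2, DSG3, DSC2 and DSC3 the medians ran from -0.07 to 0.065, but the neighbours of each include the other desmosomal cadherins compared, and CDH2.

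Genes with the pattern nearest to PKP1 were picked by the Euclidean distance over the log2 ratios of the 2 resistant lines, among the 11541 genes averaging 100 counts or more, over 3 libraries in all. They were WNT4 (distance 0.43), KRT15 (0.48), HOTS (0.59), KRT16 (0.74) and OLFML2A (0.81). For PKP2, the highest of the 9 desmosomal ratios although within 2-fold, they were CCDC59 (0.0024), DDX60 (0.011), ICAM1 (0.018), ELAVL2 (0.023) and DKC1 (0.023).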

How the data were processed

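Messenger RNA of CAL27, CAL27/5FU and CAL27/OXA was sequenced by the authors on an Illumina NovaSeq after NEBNext Ultra library preparation. The submitters' processing notes name CASAVA 1.8, HISAT2 2.0.5 and GRCh38. The counting tool, annotation and strand setting are not given in the sources used here. The authors deposited raw read counts for 19220 genes. FPKM values, deposited for 19225 genes, had been divided by the authors by gene length and library total. The labels give 1 sample per line. Another 3 columns of per-sample values match no sample label. They may be second libraries of the lines, but nothing in the labels says so, and they were not used.

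Counts were scaled with TMM in edgeR 4.0.16 (R 4.3.3), a prior count of 2 was added, and the 13676 genes averaging 10 counts or more were kept. Ratios carry exact 95% Clopper-Pearson intervals on the pair of counts, computed with scipy 1.17.1. These and the floor of 3 counts cover counting error only, and PCR copies are not independent molecules. With those columns set aside, 1 library per line was left and no test was made, so genes past 2-fold are described. The log2 ratio and its interval were tested on simulated counts that held counting error only. Library sizes there came from the genes left unchanged, so TMM scaling was not part of that test. Lists were fixed by name, and the members and lists were chosen with earlier results of these data known. Named genes were the members, DSC1, DSG4, PKP4 and PERP, the 2 largest rises and 2 largest falls past 2-fold of each list, and the 5 nearest patterns. Alternatives were other scalings (DESeq2 1.42.0 size factors, upper quartile, total counts), prior counts, filters, thresholds and FPKM. A comparison of protein sequences was not run.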

Additional observations from a re-analysis of the deposited data

Results flagged for a closer look

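TP63, KRT7 and SNAI2 had log2 ratios of opposite sign in the 2 resistant lines, with counting intervals that left out 0, although in CAL27/OXA none of them was past 2-fold. The log2 ratio of TP63 against CAL27 was -1.28 (95% counting interval -1.32 to -1.25) in CAL27/5FU and 0.13 (0.10 to 0.15) in CAL27/OXA. KRT7 had 1.70 (1.55 to 1.85) in CAL27/5FU and -0.97 (-1.20 to -0.77) in CAL27/OXA. SNAI2 had -0.66 (-0.77 to -0.55) and 0.40 (0.31 to 0.48), within 2-fold in both. The difference between the lines was not tested, since each is 1 library.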

How the results depend on the processing

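Precision is limited by the use of 1 library per line, since the 3 columns that match no sample label, possibly second libraries, were left out. The intervals cover counting error only. No paired analysis was possible because only 1 column per line could be matched to a sample. Total counts moved the median of all compared genes to 0.17 in CAL27/5FU and 0.14 in CAL27/OXA, and split the genes past 2-fold into 1432 higher and 699 lower, and 1100 higher and 1052 lower, instead of 1157 and 919, and 894 and 1269. With a pseudocount of 1 on the FPKM these were 503 and 311, and 368 and 481; with 0.1, 1168 and 613, and 884 and 909; without a filter, 1899 and 1555, and 1348 and 1925. CAL27/OXA against CAL27/5FU gave 571 higher and 1146 lower, against 165 and 437 with the pseudocount of 1 and 981 and 1861 without a filter. With a mean of at least 50 counts CAL27/5FU gave 760 and 655, and CAL27/OXA 608 and 951.

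The median of the desmosomal genes in CAL27/5FU, CAL27/OXA and CAL27/OXA against CAL27/5FU was -0.71, -0.60 and -0.049 with total counts, -0.66, -0.53 and -0.048 with FPKM and a pseudocount of 1, and -0.71, -0.59 and -0.049 with a pseudocount of 0.1. Without a filter it was -0.78 in CAL27/5FU, as DSG1 then enters. The 4 members past 2-fold in each line became 3 with total counts and with FPKM (DSP drops in CAL27/5FU, DSG3 in CAL27/OXA), 1 in each line at 4-fold, and 7 in CAL27/5FU at 1.5-fold. In CAL27/OXA, DSC2 (-0.73) and PKP3 (-0.60) joined the 4 at 1.5-fold. The shares of all compared genes past 1.5-fold and 4-fold were not computed. PKP1, the 1 member past 2-fold between the resistant lines, became 0 at 4-fold, with the whole interval past 2-fold, and with FPKM and a pseudocount of 1, and 2 without a filter. The second was DSG1, with 0, 4 and 0 counts, near the floor. Without a filter DSG1 was also past 2-fold higher in CAL27/5FU against CAL27.

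With total counts and FPKM with pseudocounts of 1 and 0.1, these turned positive: DSG2 in CAL27/5FU (0.11 in each), CDH1 in CAL27/5FU (0.027 in each), CTNNB1 in CAL27/OXA (0.049 in each), the adherens junction median in CAL27/5FU (0.019 in each) and in CAL27/OXA (0.084, 0.083 and 0.084), and the hemidesmosome median in CAL27/OXA (0.12, 0.11 and 0.12). Without a filter the adherens junction median in CAL27/OXA was 0.0066, and with the upper quartile the hemidesmosome median was 0.012. 

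Shares from counts not divided by gene length were, in CAL27, CAL27/5FU and CAL27/OXA, 71.2%, 85.1% and 81.3% for DSG2, 71.6%, 68.6% and 74.8% for DSC3, 41.0%, 4.31% and 2.01% for PKP1 and 52.4%, 74.0% and 76.8% for PKP3. With PKP4 counted in the family, PKP1 was 24.4% in CAL27 and 1.96% in CAL27/5FU, and PKP3 was 59.9%, 64.6% and 67.0%.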
